A study of Homo sapiens with 13 samples.

Results

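Chromatin accessibility at 10 genes of CTCF and the cohesin complex was compared between G1 and mitosis in T98G, a human cell line established from a glioblastoma. The genes were CTCF, RAD21, SMC3, STAG1, WAPL, PDS5A, PDS5B, NIPBL, MAU2 and SGO1. Every ATAC-seq peak that overlapped the body of one of them, extended by 5 kb on each side, was taken, which gave 26 of the 129347 peaks of the deposited table. Of these, 10 overlapped a transcription start site (TSS) of the gene itself, exactly 1 for each gene, and 16 did not. The G1 group consisted of 3 libraries from cells held without serum for 72 h. The M-phase group consisted of 3 libraries from cells held without serum for 48 h and then released for 36 h into serum with nocodazole, a microtubule poison that arrests cells in mitosis, after which mitotic cells were shaken off the dish. All libraries came from the same unmodified line, and the labels do not say whether replicates were separate cultures, so the tests measure the spread between these libraries only. Serum, nocodazole and cell cycle phase changed together and cannot be told apart. The M-phase libraries also had NextSeq runs in addition to HiSeq runs while the labels give HiSeq alone for the G1 libraries. Whether an M-phase value joins both runs is not stated, and if it does, sequencing platform cannot be told apart from phase either.

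Cohesin is a ring of SMC1A, SMC3 and RAD21, joined by a STAG subunit, that holds sister chromatids together and extrudes loops of chromatin. NIPBL and MAU2 form the complex that loads it, WAPL with PDS5A or PDS5B releases it, and CTCF is the zinc finger protein at which extruding cohesin is halted. In early mitosis most cohesin leaves the chromosome arms, and SGO1 (shugoshin) protects the part that stays at centromeres. ATAC-seq counts insertions of the Tn5 transposase into open DNA, so the values here concern how open these genes' regulatory regions are, not how much of each protein is made or bound. A larger share of cells with an open site and more insertions per cell cannot be told apart in such bulk libraries.

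Sequences of the promoters are shown because the TSS peaks carry nearly all of the signal at these genes. The RefSeq promoter table, which covers 250 bases before to 50 after a gene's start on GRCh38.p14, held 9 of the 10 genes, all but RAD21. Each of these 9 sequences matched GRCh37 (the assembly of hg19, which the authors used) exactly at 1 place in the gene's window, and each match lay inside the gene's TSS peak. Shown first are NIPBL (chr5:36876621-36876920, plus strand) and PDS5B (chr13:33160339-33160638, plus strand), whose TSS peaks changed most. CTCF (chr16:67596179-67596478, plus strand) and STAG1 (chr3:136471171-136471470, minus strand) follow, then MAU2 (chr19:19431388-19431687, plus strand) and SGO1 (chr3:20227649-20227948, minus strand), whose TSS peaks were not called. Coordinates are on hg19, each sequence reads 5′ to 3′ on the strand of the gene, and capitals mark matches to the motifs named in the next paragraph.
NIPBL: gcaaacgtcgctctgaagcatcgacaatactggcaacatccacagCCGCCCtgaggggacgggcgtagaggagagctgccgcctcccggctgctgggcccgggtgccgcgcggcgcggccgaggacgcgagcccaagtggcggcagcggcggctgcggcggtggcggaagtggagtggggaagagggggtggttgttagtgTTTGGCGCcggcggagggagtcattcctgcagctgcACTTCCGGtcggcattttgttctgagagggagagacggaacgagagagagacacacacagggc
PDS5B: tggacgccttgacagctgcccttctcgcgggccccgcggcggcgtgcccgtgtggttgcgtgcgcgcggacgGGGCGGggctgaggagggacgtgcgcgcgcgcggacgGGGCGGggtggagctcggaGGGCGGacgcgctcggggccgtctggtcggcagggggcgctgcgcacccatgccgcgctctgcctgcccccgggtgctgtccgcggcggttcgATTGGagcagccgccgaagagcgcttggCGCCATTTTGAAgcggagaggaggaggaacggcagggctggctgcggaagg
CTCF: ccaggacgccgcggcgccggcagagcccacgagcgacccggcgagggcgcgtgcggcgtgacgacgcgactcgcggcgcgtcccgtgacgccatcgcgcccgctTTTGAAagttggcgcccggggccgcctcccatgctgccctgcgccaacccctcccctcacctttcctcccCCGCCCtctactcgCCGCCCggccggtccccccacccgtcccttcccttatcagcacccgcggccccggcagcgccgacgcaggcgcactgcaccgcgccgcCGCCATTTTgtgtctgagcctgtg
STAG1: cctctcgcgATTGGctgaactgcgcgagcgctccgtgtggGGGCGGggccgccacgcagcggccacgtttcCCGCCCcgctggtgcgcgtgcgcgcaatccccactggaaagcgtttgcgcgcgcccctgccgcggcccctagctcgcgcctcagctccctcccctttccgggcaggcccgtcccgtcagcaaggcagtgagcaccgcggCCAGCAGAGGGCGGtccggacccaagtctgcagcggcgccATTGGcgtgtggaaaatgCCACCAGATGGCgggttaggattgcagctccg
MAU2: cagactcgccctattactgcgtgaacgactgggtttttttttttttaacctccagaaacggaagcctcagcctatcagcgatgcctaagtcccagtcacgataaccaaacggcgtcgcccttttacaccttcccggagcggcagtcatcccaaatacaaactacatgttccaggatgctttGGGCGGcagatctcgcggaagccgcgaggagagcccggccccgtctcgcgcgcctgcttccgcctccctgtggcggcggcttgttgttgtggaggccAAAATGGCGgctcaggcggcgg
SGO1: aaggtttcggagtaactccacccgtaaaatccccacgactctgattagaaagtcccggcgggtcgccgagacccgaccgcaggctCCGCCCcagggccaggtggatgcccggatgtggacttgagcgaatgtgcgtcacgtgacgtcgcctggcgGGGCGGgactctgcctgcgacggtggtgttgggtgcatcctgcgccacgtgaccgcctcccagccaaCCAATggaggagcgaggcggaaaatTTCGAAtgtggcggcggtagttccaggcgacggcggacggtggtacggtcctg

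Fixed consensus letters were searched on both strands of these windows, and a match describes letters only. The SP1 box GGGCGG occurred in all 9 promoters, against 56.3% of the 22199 protein-coding promoters in the table. The YY1 consensus AANATGGCG was present in 4 of the 9, those of CTCF, SMC3, PDS5B and MAU2, while 4.24% of protein-coding promoters held it. In each of these 4 it lay near the start of the gene, between positions 242 and 287 of the 300-base window. The CHR element of cell cycle genes, searched as TTTGAA or TTCGAA, was found at CTCF, SMC3, PDS5B and SGO1, against 13.7% of protein-coding promoters, and in PDS5B it shared bases with the YY1 match. A CCAAT box was present at STAG1, WAPL, PDS5A, PDS5B and SGO1, against 34.7%. NIPBL alone held an E2F consensus (TTTCGCGC or TTTGGCGC, in 1.5% of protein-coding promoters) and an ETS consensus (CCGGAAGT, in 5.34%). The NRF1 consensus GCGCATGCG was in none of the 9, against 2.36%. The core consensus of CTCF itself was found at STAG1 only, where it occurred at 2 places, from positions 211 to 222 and from 269 to 280, and 0.414% of protein-coding promoters held it. The first of these shared bases with an SP1 box. No other of the 26 peaks contained the CTCF core consensus anywhere in its width. In the central 200 bases none of the 26 held it, that of STAG1 included, beside 0.935% of all peaks.

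The TSS peaks of 8 of the 10 genes were higher in M-phase at an adjusted p under 0.05, and none was lower. Each of 73121 peaks with enough signal was tested with limma, and p-values were adjusted over all of these by the Benjamini-Hochberg method. It used log2(scaled count + 8), where the scaled count is the read count in a peak after the authors had scaled each library down to the smallest one. Changes are given on that scale as M-phase over G1, with the standard error (SE) from the fit. The largest increases were at NIPBL and PDS5B, followed by CTCF and PDS5A, while MAU2 and SGO1 were not called. Over all peaks tested, 14.3% were higher and 13.1% lower, but TSS peaks as a class shifted upwards. Of the 13130 tested peaks that overlap a TSS of a protein-coding gene, 47.1% were higher and 5.29% lower. Among the 9320 of those whose mean over the libraries reached 100, as that of all 10 of these TSS peaks did, 61.1% were higher. The 8 of 10 therefore stood against a background in which most well-covered promoters were also called higher. The median change of the 10 peaks was 0.94, beside 0.45 for protein-coding TSS peaks, 0.62 for those of at least 100, and 0.02 for all tested peaks.

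**Figure D1:**
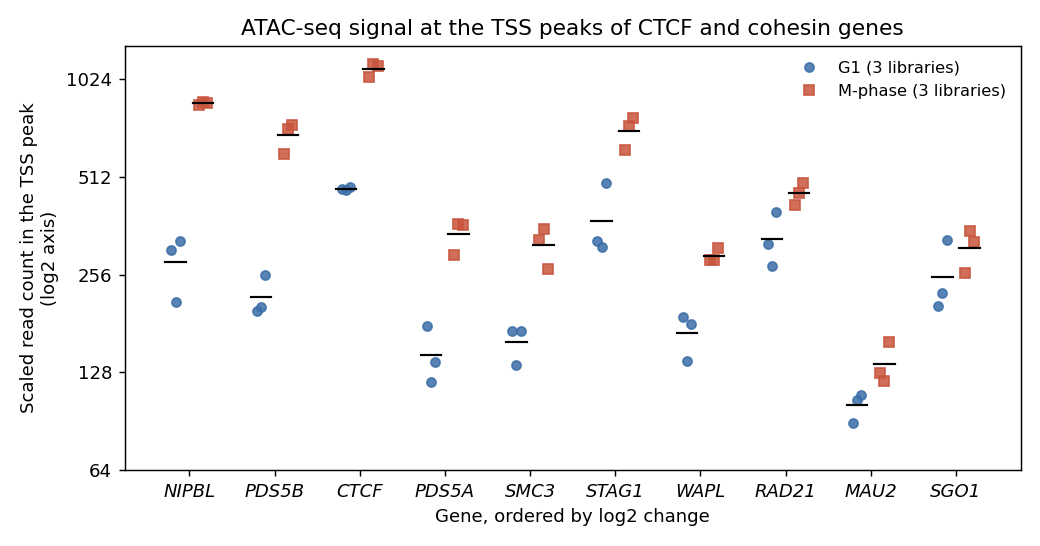
Scaled read count (log2 axis) in the TSS peak of each gene, with 1 point per library (circles, G1; squares, M-phase) and a black line at the mean of 3 libraries. Every M-phase library lay above every G1 library at 9 genes, and at SGO1 the phases overlapped.

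CTCF had the highest mean scaled count of the 10 TSS peaks in each phase, before any division by peak width. Its TSS peak lies on chromosome 16 from 67595577 to 67597712, 2136 bp wide, and also covers a start of the divergent transcript CTCF-DT, so that reads cannot be assigned to either direction. The scaled counts were 470.2, 465.6 and 475.0 in the G1 libraries and 1037.3, 1138.0 and 1120.2 in the M-phase libraries. The G1 values lay within 10 of each other, and every M-phase value was more than 2 times as high. The G1 mean was 470.3 ± 4.7 and the M-phase mean 1098.5 ± 53.7 (SD, n = 3), which the fit gave as a log2 change of 1.21 (SE 0.15, limma adjusted p = 2.82e-10).

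Of the ring subunits, SMC3, the ATPase arm of the ring, and STAG1, the subunit that contacts CTCF, rose by similar amounts. The SMC3 peak on chromosome 10 from 112326737 to 112328308 had 171.0, 135.2 and 171.0 in G1 and 325.9, 352.7 and 266.1 in M-phase. Its log2 change was 0.95 (SE 0.18, limma adjusted p = 2.31e-05). At STAG1, on chromosome 3 from 136470189 to 136472012, the values were 325.1, 310.2 and 489.0 in G1 and 617.9, 734.2 and 773.3 in M-phase. The third G1 library was the highest of its phase there and still lay below all M-phase libraries, and the log2 change was 0.93 (SE 0.17, limma adjusted p = 4.3e-06). RAD21, the kleisin that closes the ring and that separase cuts at anaphase, changed less. Its peak on chromosome 8 from 117885962 to 117887491 had 318.1, 271.1 and 399.0 in G1 and 420.2, 456.9 and 488.4 in M-phase, a log2 change of 0.47 (SE 0.17, limma adjusted p = 0.0269). The phases were separated by a small gap, from 399.0 to 420.2, and the call was lost when G1 replicate 1, G1 replicate 2, M-phase replicate 2 or M-phase replicate 3 was left out, with limma adjusted p of 0.0893, 0.113, 0.112 and 0.147.

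Under the authors' scaling, the loader genes NIPBL and MAU2 differed most within a single complex, which did not hold in the loess fit described below. NIPBL, the subunit that activates the cohesin ATPase, has the widest peak of the 10, at 2733 bp on chromosome 5 from 36875244 to 36877976, which also covers a start of NIPBL-DT. Its scaled counts were 305.2, 210.9 and 324.0 in G1 and 852.7, 868.6 and 864.2 in M-phase. The M-phase libraries were nearly identical to each other, at 861.8 ± 8.21 against 280.0 ± 60.6 in G1 (SD, n = 3), and the log2 change was 1.62 (SE 0.16, limma adjusted p = 1.75e-13). MAU2, the partner that stabilizes NIPBL, had the lowest values of the 10, with 89.5, 105.5 and 109.0 in G1 and 127.3, 120.3 and 158.8 in M-phase. Its peak, on chromosome 19 from 19430909 to 19432294, also covers a start of SUGP1. The libraries of the phases did not overlap at MAU2, but the log2 change of 0.39 (SE 0.21) did not pass the test (limma adjusted p = 0.161).

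The release factors also rose. At PDS5B on chromosome 13 from 33160004 to 33162137 the scaled counts were 197.8, 203.1 and 256.0 in G1 and 602.7, 718.2 and 737.7 in M-phase. Every M-phase library was more than 2 times as high as any G1 library there, and the log2 change was 1.62 (SE 0.17, limma adjusted p = 4.74e-13). The paralogue PDS5A, on chromosome 4 from 39978147 to 39979861, had 178.0, 119.5 and 138.0 in G1 and 293.7, 365.1 and 362.3 in M-phase, a log2 change of 1.2 (SE 0.19, limma adjusted p = 1.8e-07). WAPL, which opens the ring, had 189.9, 139.1 and 180.0 in G1 and 283.0, 284.7 and 308.0 in M-phase. The WAPL peak, on chromosome 10 from 88280679 to 88282292, changed by 0.77 on the log2 scale (SE 0.18, limma adjusted p = 0.000606).

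SGO1, the only gene of the 10 whose product acts chiefly in mitosis, showed the smallest change. Its peak on chromosome 3 from 20226892 to 20228445, which also covers a start of SGO1-AS1, had 204.8, 224.2 and 326.0 in G1 and 258.3, 348.6 and 322.4 in M-phase. The phases overlapped, since the third G1 library exceeded 2 of the M-phase libraries. The log2 change was 0.31 (SE 0.18, limma adjusted p = 0.213). Under the authors' scaling the absence of a call rests on that library, because without G1 replicate 3 the change was 0.50 with a limma adjusted p of 0.0115. With all libraries SGO1 was not called under the other scalings described below either, with changes of 0.17 (TMM), -0.04 (equal totals) and -0.32 (loess fit).

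Libraries of the phases did not overlap at 9 of the 10 TSS peaks, all with M-phase above G1, whereas this was so at 52.3% of tested protein-coding TSS peaks. Ranked among the 13130 protein-coding TSS peaks, the changes of NIPBL and PDS5B were both at percentile 98.9. CTCF was at percentile 92.0 and PDS5A at 91.6. SMC3, STAG1 and WAPL followed at 81.5, 80.5 and 70.6, and RAD21, MAU2 and SGO1 were near the middle at 51.6, 46.6 and 41.6. The 52.3% and these percentiles were taken over peaks of every level. Neither was computed for the 9320 peaks with a mean of at least 100, the class of all 10 genes. The median change of that class was 0.62, above the changes of RAD21 (0.47), MAU2 (0.39) and SGO1 (0.31).

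**Figure D2:**
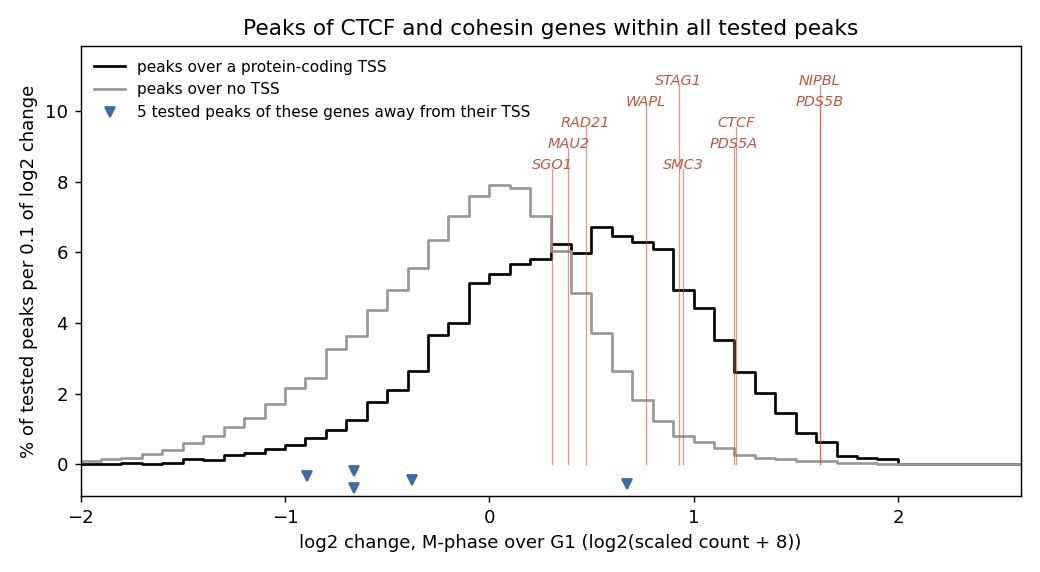
Share of tested peaks per 0.1 of log2 change, for 13130 peaks over a protein-coding TSS (black) and 57621 peaks over no TSS (grey). Red lines mark the TSS peaks of the 10 genes, which lie from 0.31 (SGO1) to 1.62 (NIPBL and PDS5B), and blue triangles mark the 5 tested peaks away from these TSSs, from -0.89 to 0.67.

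Members of one complex were also compared within each library, as the difference of their TSS peaks in log2(scaled count + 8), here called a log2 ratio. Of 4 pairs, chosen after the values had been seen, the log2 ratio of NIPBL to MAU2 was 1.68, 0.95 and 1.5 in G1 and 2.67, 2.77 and 2.39 in M-phase. All M-phase ratios exceeded all G1 ratios, by 1.23 on average. PDS5B to PDS5A moved by 0.42, from 0.58 ± 0.38 to 1.0 ± 0.03 (SD, n = 3). SMC3 to RAD21 moved by 0.48, from -1.0 ± 0.16 to -0.53 ± 0.29, and STAG1 to RAD21 by 0.46, from 0.17 ± 0.13 to 0.63 ± 0.07 (SD, n = 3). For each pair an exact permutation test (two-sided) returned p = 0.1, and 0.1 after adjustment over the 4, which is the smallest p that 3 libraries against 3 allow. A scaling of whole libraries hardly moved these differences, since with an equal total in peaks NIPBL changed by 1.27 beside 0.06 at MAU2. The loess fit on abundance, described below, did move them. In that fit NIPBL changed by 0.76 beside 0.14 at MAU2, and PDS5B by 0.85 beside 0.66 at PDS5A. SMC3 changed there by 0.41 and STAG1 by 0.05, beside -0.29 at RAD21.

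The order of the genes by level was compared per kb of peak, since the peaks are between 1386 and 2733 bp wide. In G1 the highest scaled counts per kb were those of CTCF (220.2 ± 2.2), RAD21 (215.3 ± 42.3) and STAG1 (205.5 ± 54.4), which did not differ by more than their SDs (n = 3). SGO1 followed with 161.9 ± 41.9, within the spread of RAD21 and STAG1. WAPL, PDS5B, NIPBL and SMC3 lay together between 101.2 and 105.1, with SDs from 13.1 to 22.2, and PDS5A (84.6 ± 17.4), which overlapped with these, and MAU2 (73.1 ± 7.5) were lowest. In M-phase CTCF stood apart at 514.3 ± 25.2 per kb, above STAG1 at 388.4 ± 44.3, whose spread reached that of PDS5B. PDS5B (321.6 ± 34.2), NIPBL (315.3 ± 3.0) and RAD21 (297.5 ± 22.3) did not differ beyond their spread. Neither did SMC3 (200.3 ± 28.2), SGO1 (199.3 ± 29.9), PDS5A (198.5 ± 23.6) and WAPL (180.9 ± 8.65), and MAU2 was lowest at 97.7 ± 14.8. NIPBL and PDS5B thus ranked among the lower promoters in G1 and in the upper part in M-phase.

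The rises depended on how the libraries were scaled. With a trimmed mean of M values (TMM) scaling 7 of the 10 were still higher, and with an equal total in peaks also 7, RAD21 being lost in both. A loess fit that removes a trend of the change with abundance left 4 higher, namely NIPBL (0.76), PDS5B (0.85), PDS5A (0.66) and SMC3 (0.41). Under that fit RAD21 turned to -0.29 (limma adjusted p = 0.0482) and SGO1 to -0.32 (adjusted p = 0.0688), and CTCF, STAG1 and WAPL were at 0.20, 0.05 and 0.23 and not called. The share of protein-coding TSS peaks called higher was 42.2% with TMM, 32.3% with equal totals and 22.5% with the loess fit. Total scaled counts in peaks were 4191845 to 5092426 in G1 and 5475345 to 6000423 in M-phase, and the part of this difference in the rises was not tested beyond these scalings.

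**Figure D3:**
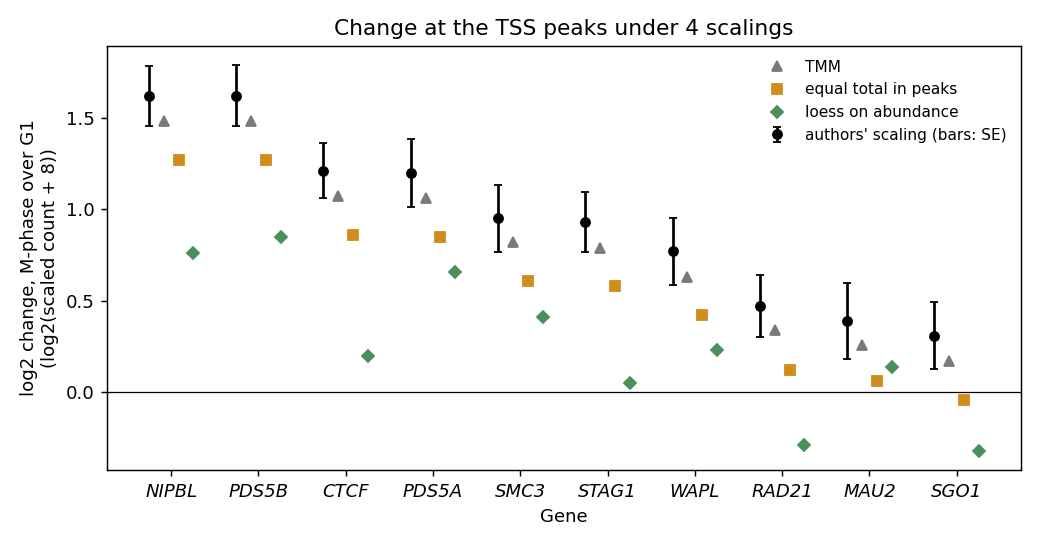
Log2 change, M-phase over G1, at the TSS peak of each gene under the authors' scaling (circles, with bars of 1 standard error), TMM (triangles), equal totals in peaks (squares) and the loess fit on abundance (diamonds). NIPBL, PDS5B, PDS5A and SMC3 stay well above 0 in all 4, and RAD21 and SGO1 fall below 0 in the loess fit.

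In sequence the TSS peaks were typical CpG-rich promoters. Their GC content ran from 52.4% (SGO1) to 71.9% (PDS5A) with a median of 63.3%, and the median over 13468 protein-coding TSS peaks was also 63.3%. The ratio of observed to expected CpG lay between 0.75 and 1.03 (median 0.87, against 0.75 for protein-coding TSS peaks). The peaks were wider (median 1664.5 bp against 1219 bp), and their mean scaled counts of 118.4 to 784.4 had a median of 336.5 against 169.1 over the tested protein-coding TSS peaks. Another gene's TSS lay under 7 of the 10, and only the peaks of SMC3, PDS5A and PDS5B covered no TSS but their own.

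Away from the TSS these genes held few and weak peaks. RAD21, WAPL, PDS5A and SGO1 had none, SMC3, PDS5B and MAU2 had 1 each, STAG1 and NIPBL had 3 each, and CTCF had 7. STAG1 spans 416168 bp and NIPBL 189645 bp, so peak number did not follow gene length. Of the 16 peaks, 12 lay in introns, 1 over an exon of CTCF and 3 in the downstream flanks of CTCF, SMC3 and MAU2, and none overlapped a TSS of another gene. They were 70 to 330 bp wide, had a median GC content of 49.1% and a median observed to expected CpG ratio of 0.22. Only 5 of the 16 passed the filter on low values and could be tested. The TSS peak held 85.8% ± 0.544 of the window's scaled counts at CTCF in G1 and 94.9% ± 0.847 in M-phase (SD, n = 3). At MAU2 it held 86.4% ± 3.04 and 94.8% ± 2.59, and at NIPBL 95.7% ± 0.366 and 98.1% ± 0.573 (SD, n = 3). The libraries of the phases did not overlap in this share at CTCF, STAG1, NIPBL, MAU2 and PDS5B, and they overlapped at SMC3. RAD21, WAPL, PDS5A and SGO1 had no other peaks, so their share was 100% by construction. The mean summed count of the other peaks fell at CTCF, STAG1 and MAU2 and rose at NIPBL and PDS5B. In these sums the libraries of the phases overlapped at STAG1, NIPBL and PDS5B. How often the share in the TSS peak separates the phases at other genes was not computed. Over all genes the classes moved the same way, with a median log2 change of 0.45 for protein-coding TSS peaks and -0.05 for peaks over no TSS.

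Of the 5 tested peaks 1 was lower in M-phase and none was higher, beside 15% lower and 6.51% higher among the 57621 tested peaks that overlap no TSS. The filter on low values was adjusted for library totals in peaks, which were larger in M-phase. It therefore asked for higher scaled counts in M-phase, and weak peaks high in G1 passed more readily than weak peaks high in M-phase. These counts by direction depend in part on that filter. The peak that fell lies 79728 bp from the CTCF start, in the downstream flank and 2606 bp from the nearest TSS, that of CARMIL2. Its scaled counts were 41.8, 35.2 and 48.0 in G1 and 24.7, 17.3 and 14.9 in M-phase. All G1 libraries lay above all M-phase libraries, and the log2 change was -0.89 (SE 0.27, limma adjusted p = 0.00831). The call held under every scaling tried, the replicate block and each fit that left out a library, but the peak lies outside the gene body, so that without the 5 kb extension no peak away from a TSS was lower. Its sequence is shown because it was the sole called peak of these genes outside their promoters. The 257 bases (chr16:67676029-67676285 of hg19, plus strand, GC content 56.0%) contained an AP1 consensus TGANTCA, in capitals, which was present in 12.9% of peaks over no TSS when their central 200 bases were searched. The letters RUNX TGTGGTT, TEAD CATTCC and FOX TGTTTAC, which like AP1 were chosen after the result was known, were not in this window, against 5.11%, 13.0% and 3.07% of peaks over no TSS.
CTCF downstream peak: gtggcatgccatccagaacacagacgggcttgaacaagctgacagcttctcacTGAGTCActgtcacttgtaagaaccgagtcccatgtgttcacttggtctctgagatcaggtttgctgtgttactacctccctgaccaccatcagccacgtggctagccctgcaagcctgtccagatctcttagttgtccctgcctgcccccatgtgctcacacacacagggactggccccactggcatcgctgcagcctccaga

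The other tested peaks were near the limit of detection. In an intron of CTCF, from 67669874 to 67670203, the values were 9.9, 14.8 and 15 in G1 and 2.5, 4.5 and 10.1 in M-phase, which overlapped slightly (log2 change -0.66, limma adjusted p = 0.0697). The flank peak of MAU2 from 19472003 to 19472225 had 17.9, 12.5 and 17 in G1 and 8.2, 9.5 and 3.8 in M-phase. These did not overlap, yet the change of -0.66 did not pass the test (limma adjusted p = 0.0722). Both peaks passed it with TMM scaling (adjusted p = 0.0367 and 0.0373 from limma) and with equal totals (0.0139 and 0.0141). However, both met the filter on low values in their G1 libraries alone, the phase in which they were higher. Their p-values are therefore not independent of that selection and are no support for a fall. In an intron of NIPBL, from 36929223 to 36929343, the values were 8.9, 0.8 and 4.0 against 7.8, 12.8 and 14.0, a change of 0.67 (limma adjusted p = 0.061), and without G1 replicate 1 the adjusted p was 0.0227. An intronic peak of STAG1 from 136447887 to 136448046 changed by -0.38 (limma adjusted p = 0.37). Among the 11 peaks below the filter, the mean scaled counts over all 6 libraries were between 1.7 and 9.12, and these were not tested. An intronic peak of CTCF from 67653043 to 67653308 was the only one of them whose phases did not overlap, with 4.0, 6.3 and 4.0 in G1 and 9.9, 11.5 and 14.0 in M-phase.

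**Figure D4:**
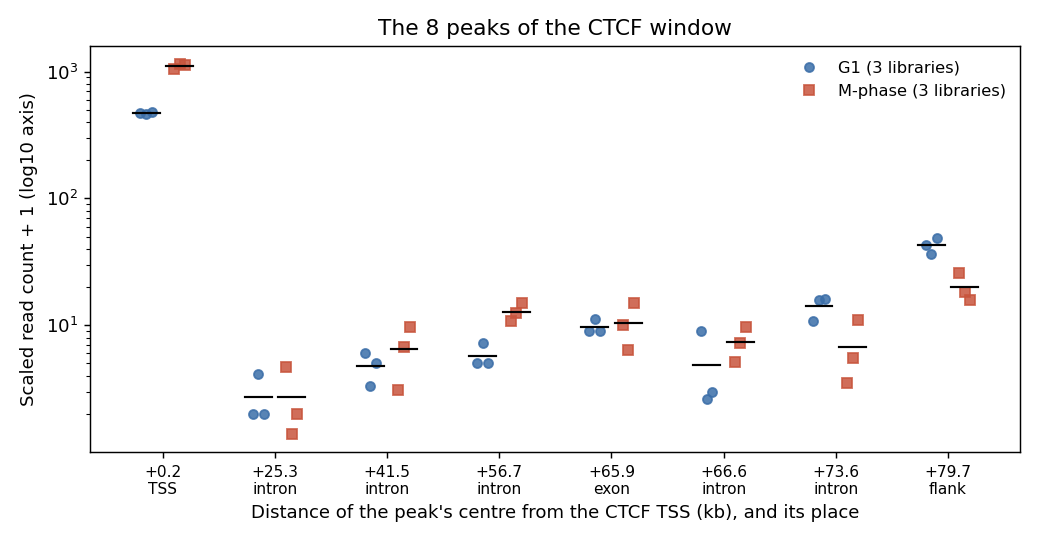
Scaled read count plus 1 (log10 axis) of the 8 peaks in the window of CTCF, ordered by the distance of their centres from the CTCF start in kb (circles, G1; squares, M-phase; black lines, means of 3 libraries). The TSS peak is higher in M-phase, the flank peak at 79728 bp is lower, and the 6 peaks between them are weak in both phases.

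The other genes of the pathway were taken from a list of 15 that act in the cohesin cycle or beside CTCF, and each was represented by its strongest TSS peak. The peaks of SMC1A (RIBC1), CDCA5 (ZFPL1), PTTG1 (SLU7), CHTF18 (RPUSD1) and CHTF8 (DERPC and UTP4) also covered a start of the genes in brackets. Those of STAG2, HDAC8, ZNF143, MAZ and YY1 also covered a start of another gene. Reads in such peaks cannot be assigned to either gene. Of the 15 list peaks, 11 were higher in M-phase and none was lower, beside the 47.1% and 5.29% of protein-coding TSS peaks. Among protein-coding TSS peaks with a mean of at least 100, a level that most of the listed peaks reached, 61.1% were higher. The median change of the list was 0.74, beside 0.62 in that class. The remaining ring subunits rose, SMC1A by 0.68 (limma adjusted p = 0.00706) and STAG2, the paralogue of STAG1, by 0.99 (adjusted p = 2.32e-05). ESCO1 and ESCO2, which acetylate SMC3, rose by 1.03 and 0.82, and CDCA5 (sororin), which counteracts WAPL, by 0.74. CHTF18 and CHTF8, of the clamp loader that promotes cohesion at replication forks, rose by 0.62 and 0.81, and PTTG1 (securin), the inhibitor of separase, by 0.69. The increases were largest at the architectural and promoter factors YY1 (1.46, adjusted p = 2.98e-12), MAZ (1.25, adjusted p = 3.81e-11) and ZNF143 (1.07, adjusted p = 1.1e-07). Not called were HDAC8, the SMC3 deacetylase, at -0.56 (limma adjusted p = 0.0869), ESPL1 (separase) at 0.39 (0.199), SGO2 at 0.23 (0.43) and DSCC1 at 0.45 (0.0738). These calls depended on the scaling. With TMM the same 11 were higher and HDAC8 was lower (-0.68, limma adjusted p = 0.0217). With equal totals SMC1A, PTTG1 and CHTF18 lost their calls, which left 8 higher, and HDAC8 was lower (-0.87, limma adjusted p = 0.00287). In the loess fit only STAG2 (0.56), ESCO1 (0.55), ESCO2 (0.45) and YY1 (0.56) were called higher and none was lower, 4 of the 15 beside 22.5% of protein-coding TSS peaks.

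Relatives of these genes that function in germ cells were taken as a further list of 5. No peak overlapped a TSS of REC8 or of CTCFL, the testis paralogue of CTCF. The TSS peak of SMC1B was weak, at 13.1 ± 3.06 in G1 and 5.8 ± 0.9 in M-phase (SD, n = 3), and was shared with RIBC2. None of the 3 that could be tested passed, with changes of -0.60 at SMC1B, 0.07 at RAD21L1 and 0.35 at STAG3, whose peak was shared with GPC2. With equal totals SMC1B was lower (-0.78, limma adjusted p = 0.0213), and RAD21L1 turned to -0.06 with TMM, -0.26 with equal totals and -0.15 in the loess fit without passing the test. Whether these changes differ from those of the somatic genes was not tested.

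The 3 protein-coding genes whose strongest TSS peak was most like that of CTCF in all 6 libraries, out of 13207 compared, were PLEKHH3, CD151 and TRIM8. The Euclidean distances of log2(scaled count + 8) were 0.20, 0.23 and 0.23. As a check of the line, TSS peaks were present at 5 of 8 glioma or glial marker genes, with VIM at 272.1 ± 55.3 in G1 and 960.8 ± 112.3 in M-phase (SD, n = 3). No peak overlapped a TSS of GFAP, NES or CHI3L1, and the TSS peak of SOX2 was too weak to be tested. Of 9 marker genes of blood, liver, epithelium and endothelium, only the epithelial gene EPCAM had a TSS peak.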

How the data were processed

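Accessibility was measured by ATAC-seq in 6 libraries, 3 of G1 and 3 of M-phase, and the 4 chromatin fraction and input samples were not analysed here. As the methods of the study state, the authors trimmed adapters with cutadapt, mapped reads to hg19 with Rbowtie in QuasR (reads with up to 3 locations were kept at 1 of them), removed mitochondrial reads, ran macs2 in broad mode on the pooled replicates of each phase and then merged the peaks of both phases. Tool versions, and whether reads were shifted for Tn5, are not given in the sources used here. The deposited signal is a scaled read count per peak, given to 0.1, for which the authors brought all libraries to the size of the smallest. Each M-phase column matches both the HiSeq and the NextSeq run of its replicate number and was used as 1 replicate, and whether it joins both runs is not given in the sources used here. The authors' columns of log2 change and its SD were not used. The number of columns belonging to no sample of the series was 0.

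Peaks were tested with limma 3.58.1 (R 4.3.3, mean-variance trend, no covariates) on log2(scaled count + 8) over all peaks that reached 10, adjusted for library size, in no fewer than 3 libraries and 15 in total. This left 73121 of 129347 peaks, including all 10 TSS peaks of the genes described. Whole reads were not recovered from the scaled values, so no count model was used. Gene bodies and TSSs came from GENCODE release 44 lifted to GRCh37, and a TSS peak overlaps at least 1 annotated transcript start of the gene. The fit was tested on simulated data. The genes, lists and tests were chosen with earlier results of these data known. Genes named are all 10 members, their tested peaks, the pathway list, the germline relatives, the marker genes and the 3 genes nearest to CTCF. Alternatives were TMM, equal totals, a loess fit on abundance, a pseudocount of 1, other filters, the replicate block, leaving out each replicate, and other definitions of the peaks. Other steps used Python 3.11.15, pandas 2.3.3, scipy 1.17.1, pysam 0.24.0 and matplotlib 3.10.9. Sequencing depth before scaling was not used here, and precision is given by the spread between libraries.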

Additional observations from a re-analysis of the deposited data

How the results depend on the processing

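The number of TSS peaks of these genes higher in M-phase was 8, and it stayed between 7 and 9 under every alternative except the loess fit on abundance, which gave 4 higher and 1 lower (RAD21). Leaving out 1 replicate at a time gave 7 to 9. The median log2 change of the 10 peaks, 0.94, moved to 0.59 with equal totals in peaks and to 0.21 with the loess fit. SGO1 turned to -0.04 with equal totals and -0.32 with the loess fit, and RAD21 to -0.29 with the loess fit. Of the peaks away from a TSS, 1 was lower, and 3 were lower with TMM and with equal totals. The intronic CTCF peak and the MAU2 flank peak, added there, met the filter in G1 libraries alone. With the loess fit 1 was higher, and without the 5 kb extension 0 were lower. Leaving out a replicate gave 1 to 2 lower and 0 to 1 higher. Of the 15 genes of the pathway list and the 3 germline relatives tested, 11 were higher, 8 with equal totals and 4 with the loess fit. The number lower, 0, became 1 with TMM and 2 with equal totals, and 0 to 1 when a replicate was left out. The cause of these shifts was not tested. A count test was not run, because in 2 M-phase libraries too few of the low values were whole multiples of the value of 1 read. With the replicate number as a block, 8 TSS peaks were higher and 1 peak away from a TSS was lower, so the block changed none of these counts, nor the call of any peak named for the 10 genes. Same-numbered libraries hardly deviated together (r from -0.0101 to 0.0284), and they share only a number.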
